A study of Mus musculus with 16 samples.

Results

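The transcripts of 9 genes of the oxygen-sensing pathway were followed in endothelial cells of mouse embryos with 6 Notch1 genotypes. The genes were chosen by name: the HIF alpha subunits Hif1a, Epas1 and Hif3a, their shared partner Arnt, the ubiquitin ligase subunit Vhl, the asparaginyl hydroxylase Hif1an, and the prolyl hydroxylases Egln1, Egln2 and Egln3. All 9 were found among the 22096 gene symbols in the files, and all 9 passed the filter on low values that left 10550 genes for testing.

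Hypoxia-inducible factors are transcription factors made of an oxygen-labile alpha subunit and the stable beta subunit Arnt. When oxygen is plentiful, the Egln enzymes hydroxylate prolines of the alpha subunit, and Vhl then marks it for degradation. Hif1an hydroxylates an asparagine and so blocks the binding of co-activators. In low oxygen these enzymes slow down, HIF accumulates and its target genes are transcribed. Egln1 and Egln3 are themselves known HIF target genes, whereas Egln2 is not known as one, and Epas1 (HIF-2 alpha) is known as an alpha subunit that is abundant in endothelium. Because the alpha subunits are controlled mainly through protein stability, their transcripts say little about protein amounts, which were not measured.

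The cells were taken from whole embryos of embryonic day 9.5 by sorting for the surface protein CD31. A library can therefore hold endothelium from any part of the embryo and any other cells that carry CD31. Each genotype is a pair of germline Notch1 alleles. The wild-type allele is written +, and the allele written - is a deletion. The vg allele carries the substitution V1744G, which moves the cleavage site and gives a less stable intracellular domain. In the 12 allele the intracellular domain comes from Notch2. The genotypes +/+, +/-, +/vg and +/12 had 3 libraries each and are described in the labels as normal in endothelial development. They are called the 4 normal genotypes here. Replicate numbers were assigned in accession order within a genotype, only to name libraries, and pair none across genotypes. The genotype 12/- had 3 libraries and is labelled as having endothelial dysfunction, and 12/vg had 1 library and is labelled as having a partial form. Whether a library came from 1 embryo or several is not stated, and a p-value therefore speaks only of how libraries vary, part of which may be technical.

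Values are FPKM, fragments per length of transcript relative to all mapped fragments, summed over the transcripts of a gene and divided by a scaling factor per library (scaled FPKM). The value is per length, so levels of different genes can be compared. Fold changes are differences of log2(scaled FPKM + 1), which understates the change of low genes. They come from a limma fit over all tested genes, given with the standard error, and a gene was called at a Benjamini-Hochberg adjusted p under 0.05 over all 10550. Aligned sequence was 0.189 gigabases in +/- replicate 2 and 0.262 in 12/vg, and 1.11 to 1.80 in the other 14 libraries. In the files' library numbers, 9 libraries lie between 203 and 248 (the low range) and 7 between 371 and 380 (the high range). All 12/-, 12/vg and +/12 libraries are in the low range, all +/+ libraries in the high range, and +/- and +/vg have 1 low library each, replicate 3. Of the endothelial markers, Pecam1, which encodes CD31, ran from 46.1 to 89.3 scaled FPKM and the adhesion protein Cdh5 from 149 to 244 over all 16 libraries. Notch1 itself, the targeted gene, had 17.5 to 23.3 scaled FPKM in +/+, 16.4 to 23.2 in +/-, 20.5 to 23.2 in +/vg, 14.5 to 16.1 in +/12 and 15.4 to 19.7 in 12/-, and 15.4 in 12/vg. The ranges of +/+ and +/- overlapped, and which part of the gene the deletion removes is not given, so this level does not check the labels.

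Among the 9 genes, the prolyl hydroxylase transcripts Egln3 and Egln1 were higher in 12/- embryos, and the other 7 did not pass the test. Against the mean of the 4 normal genotypes, 2 of 9 were called higher and 0 lower. Of all tested genes 0.787% were called in either direction, 0.72% higher and 0.0664% lower. The median log2 fold change was 0.15 over the 9 genes and -0.0048 over all genes tested. In bulk RNA a change in transcript per cell cannot be told apart from a change in the share of the cells that make it.

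The upstream sequences of the 2 genes that rose are shown because both genes are known HIF targets. They come from RefSeq (build GRCm38.p6), cover 250 bases before to 50 after the start of the gene, and are written 5′ to 3′ on the strand of the gene. Capitals mark the core of the hypoxia response element, searched as ACGTG or GCGTG on both strands. Egln1 lies at chr8:124949205-124949504 on the minus strand and Egln3 at chr12:54203825-54204124 on the minus strand.
Egln1: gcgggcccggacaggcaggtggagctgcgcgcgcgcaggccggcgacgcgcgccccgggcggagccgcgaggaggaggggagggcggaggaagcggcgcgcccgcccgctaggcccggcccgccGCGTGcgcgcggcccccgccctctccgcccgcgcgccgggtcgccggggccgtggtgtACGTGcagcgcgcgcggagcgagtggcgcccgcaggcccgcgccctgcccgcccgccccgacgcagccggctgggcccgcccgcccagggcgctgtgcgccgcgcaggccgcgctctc
Egln3: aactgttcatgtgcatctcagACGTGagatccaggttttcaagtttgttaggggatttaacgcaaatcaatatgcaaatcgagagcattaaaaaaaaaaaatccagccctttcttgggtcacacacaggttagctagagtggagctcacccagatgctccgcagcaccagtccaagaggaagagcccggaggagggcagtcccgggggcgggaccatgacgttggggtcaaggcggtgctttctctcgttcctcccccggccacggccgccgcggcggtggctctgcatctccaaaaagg

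The Egln1 window held 2 such cores and 86.0% G or C, and the Egln3 window held 1 core and 54.7% G or C. Windows were found for 8 of the 9 genes, with 2 for Egln2, and 7 of these 9 windows held at least 1 core, as did 43.8% of all 32851 windows in the table. The core was therefore not limited to the genes that rose: it also occurred in windows of Arnt, Hif3a, Egln2 and Hif1a, and was not matched in those of Vhl and Hif1an. The core TGGGAA of the Notch partner RBPJ, searched on both strands, was matched in 1 of the 9 windows, the second of Egln2, and in 25.6% of all windows. A match of letters is not a bound site.

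Egln3 (chr12:55279968-55304861 in mm9) encodes PHD3, the prolyl hydroxylase best known for its induction by hypoxia. In 12/- replicates 1 to 3 its scaled FPKM was 25.8, 21.8 and 27.2. It was 5.85, 5.74 and 4.89 in the +/+ libraries and 5.81, 3.51 and 5.45 in the +/- libraries. The +/vg libraries had 5.48, 5.53 and 4.81. The +/12 libraries had 5.56, 11.9 and 4.96, and the 12/vg library had 7.68. Every 12/- library thus lay above every other library, the normal genotypes overlapped one another, and 1 library, +/12 replicate 2, stood apart from the other 11 normal ones, which ended at 5.85. How many of all tested genes separate 12/- from the other libraries in this way was not counted, here or for Egln1 below.

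The 12/- mean of 24.9 ± 2.78 (SD, n = 3) was 4.31 times the mean of the 12 normal libraries, 5.79 ± 2.02 (SD, n = 12). Against the mean of the 4 normal genotypes the log2 fold change was 1.97 ± 0.19 (SE, limma adjusted p = 1.5e-04). Egln3 was called against each normal genotype in turn. The log2 fold change was 2.15 ± 0.24 against +/- (limma adjusted p = 0.0011, 0.569% of all genes called), and 2.04 ± 0.24 against +/vg (limma adjusted p = 0.0019, 0.445% called). It was 2.00 ± 0.24 against +/+ (limma adjusted p = 0.0015, 0.607% called) and 1.70 ± 0.24 against +/12 (limma adjusted p = 0.0079, 0.209% called). These comparisons share the 12/- libraries. Without the shallow +/- replicate 2, the log2 fold change against +/- was 1.96 (limma adjusted p = 0.0052).

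The fold against +/12 is the one in which both genotypes lie wholly in the low range of library numbers. Its call was lost, with log2 fold changes from 1.49 to 1.70, when only the 2 genotypes or only the low range was fitted (limma adjusted p = 0.18 and 0.22). It was also lost without +/12 replicate 1, +/12 replicate 3, 12/- replicate 1 or 12/- replicate 3 (limma adjusted p = 0.056, 0.053, 0.068 and 0.057). Against +/+, a covariate for the library number range left 1.97 (limma adjusted p = 0.077). Within the low range the 5 normal libraries averaged 6.53 ± 3.00 scaled FPKM (SD), and the 7 of the high range averaged 5.26 ± 0.84 (SD).

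**Figure D1:**
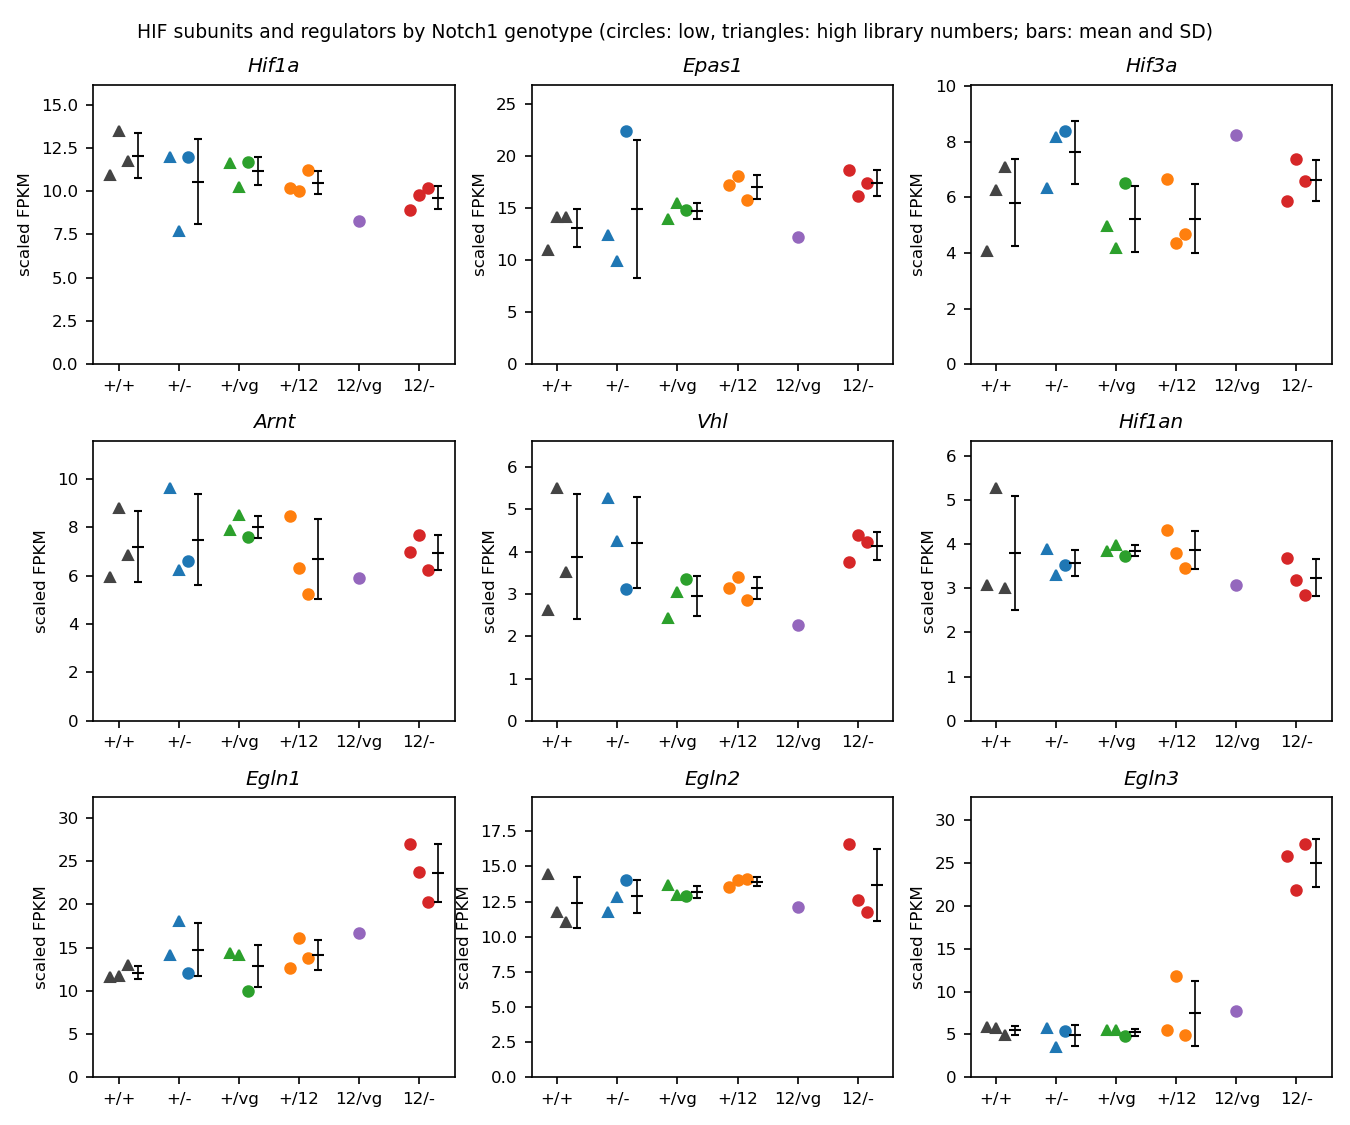
Scaled FPKM of the 9 genes (vertical axes, from 0) in each library by Notch1 genotype (horizontal axes). Circles are libraries of the low and triangles of the high range of library numbers, and bars give the mean and SD of 3 libraries. Egln3 in 12/- runs from 21.8 to 27.2 with all normal libraries at or below 11.9, and Egln1 in 12/- runs from 20.2 to 27.0 with all normal libraries at or below 18.1.

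Egln1 (chr8:127432487-127473154 in mm9) encodes PHD2, the main prolyl hydroxylase that keeps HIF low in normal oxygen. Its scaled FPKM was 27.0, 23.7 and 20.2 in the 12/- libraries. It was 11.7, 11.7 and 13.0 in +/+ and 14.2, 18.1 and 12.1 in +/-. The +/vg libraries had 14.4, 14.2 and 10.0, the +/12 libraries had 12.7, 16.1 and 13.8, and the 12/vg library had 16.7. The 12/- libraries did not overlap any other, and the highest normal value, 18.1, came from the shallow +/- replicate 2, where the mean read depth over Egln1 was 3.34 against at least 16.1 in the 14 deeper libraries.

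The 12/- mean of Egln1, 23.6 ± 3.36 (SD, n = 3), was 1.75 times the mean of the 12 normal libraries, 13.5 ± 2.16 (SD, n = 12). The log2 fold change was 0.77 ± 0.13 against the 4 normal genotypes (SE, limma adjusted p = 0.014) and 0.90 ± 0.17 against +/+ (SE, limma adjusted p = 0.032). It was 0.84 ± 0.17 against +/vg, 0.70 ± 0.17 against +/12 and 0.65 ± 0.17 against +/-, and these did not pass (limma adjusted p = 0.057, 0.21 and 0.13). The call against the 4 normal genotypes was lost without 12/- replicate 1 (0.68, limma adjusted p = 0.18) or replicate 2 (0.76, limma adjusted p = 0.090). The call against +/+ was lost in each of the 6 fits that left out 1 library, at 0.81 to 1.01 (limma adjusted p from 0.054 to 0.20), and with the 2 genotypes fitted alone (limma adjusted p = 0.057).

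Egln2 (chr7:27943677-27951821 in mm9) encodes PHD1, the third prolyl hydroxylase. It had the smallest spread of the 9 genes over the 12 normal libraries, a coefficient of variation of 8.33%. The 12/- libraries had 16.6, 12.6 and 11.8 scaled FPKM and overlapped the normal ones, which ran from 11.1 to 14.5. The log2 fold change against the 4 normal genotypes was 0.05, with a 95% interval from -0.18 to 0.27 (limma adjusted p = 0.91).

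**Figure D2:**
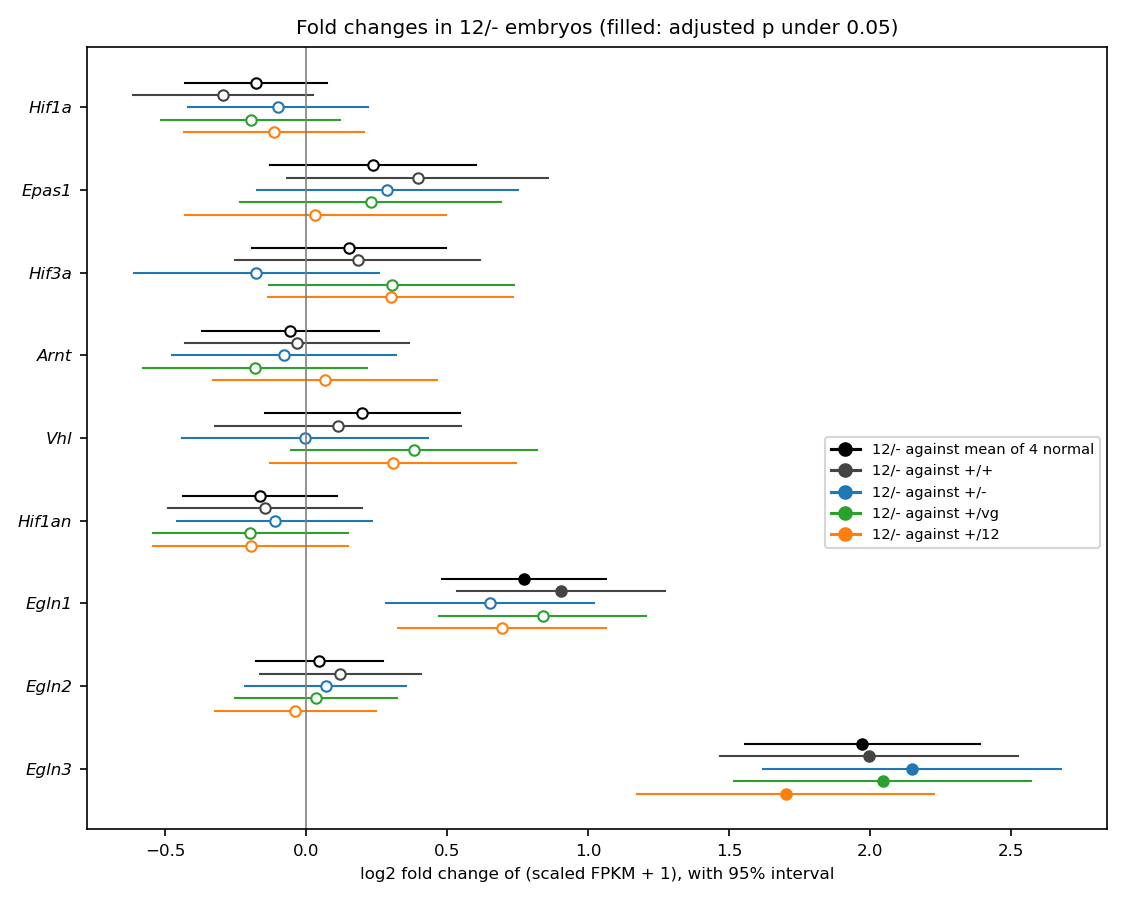
Log2 fold change of each of the 9 genes (horizontal axis, log2 of scaled FPKM + 1) in 12/- embryos against the mean of the 4 normal genotypes and against each of them, with 95% intervals from limma. Filled points were called at an adjusted p under 0.05. Egln3 is filled in all 5 comparisons and Egln1 in 2, and the intervals of the other 7 genes include 0 in every one.

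The make-up of the Egln transcripts therefore differed with genotype. The summed level of the 3 genes was 62.2 ± 6.19 scaled FPKM in 12/- (SD, n = 3), with a lowest library of 58.2. It was 32.4 ± 3.61 in the normal libraries (SD, n = 12), with a highest library of 42.0. Egln3 made up 40.2 ± 4.94% of this sum in 12/- (SD, n = 3) and 17.7 ± 4.07% in the normal genotypes (SD, n = 12). The difference of 22.5 percentage points had an exact permutation p of 0.0022, two-sided, the smallest that 455 arrangements can give, and 0.0044 after Benjamini-Hochberg adjustment over the 2 shares tested. The share is computed from the same levels as the fold changes above, so its test is not separate evidence. All 3 libraries of 12/- lay above all 12 others, with shares of 37.2%, 37.5% and 45.9%. Within the low range of library numbers the shares were 40.2% and 19.1 ± 5.22% (SD, n = 5). The exact permutation p was 0.018, the smallest that 56 arrangements can give, and 0.036 after adjustment.

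Egln3 stood below both Egln1 and Egln2 in 12 of 12 normal libraries. In 12/- it stood above Egln2 in 3 of 3 libraries and above Egln1 in 1 of 3. By mean level Egln3 ranked 7 of the 9 genes in the normal libraries and 1 of 9 in 12/-, where its level and that of Egln1 lay within each other's spread. The 12/vg library, with no replicate, had an Egln3 share of 21.0%, below the 28.2% of +/12 replicate 2.

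**Figure D3:**
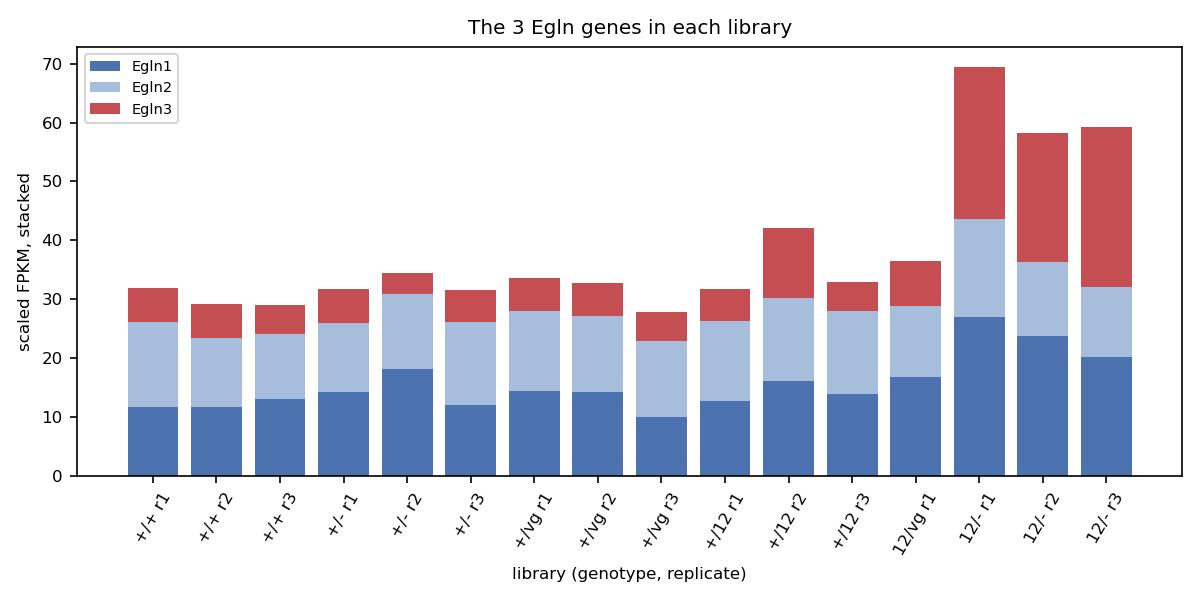
Scaled FPKM of Egln1, Egln2 and Egln3 stacked for each of the 16 libraries (r is the replicate). The 12/- bars reach 58.2 to 69.4 and the normal bars 27.7 to 42.0, and the Egln2 part lies between 11.1 and 16.6 throughout.

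None of the alpha subunits passed the test. Hif1a (chr12:75008854-75048517 in mm9), the widely expressed subunit, had 8.89, 9.78 and 10.2 scaled FPKM in 12/-. The normal libraries ran from 7.73 to 13.5 with a median of 11.4, so the 12/- values lay within their range and below their median. The lowest normal value came from the shallow +/- replicate 2. The next, 10.0 in +/12 replicate 2, was above 12/- replicates 1 and 2. Without the shallow libraries the log2 fold change against the 4 normal genotypes was -0.22 and did not pass (limma adjusted p = 0.23). By genotype Hif1a averaged 12.1 ± 1.29 in +/+, 11.2 ± 0.81 in +/vg, 10.5 ± 2.45 in +/- and 10.5 ± 0.66 in +/12 (SD, n = 3 each). It averaged 9.62 ± 0.67 in 12/- (SD, n = 3). The log2 fold change against the 4 normal genotypes was -0.18, with a 95% interval from -0.43 to 0.08 (limma adjusted p = 0.61).

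Epas1 (chr17:87153204-87232750 in mm9) had the highest mean of the 9 genes in each of the 4 normal genotypes, and exceeded Hif1a in all 16 libraries. Its scaled FPKM was 18.7, 16.2 and 17.4 in 12/-, and ran from 9.92 to 22.4 in the normal libraries with a median of 14.5. The highest value came from +/- replicate 3 and the lowest from the shallow +/- replicate 2. The log2 fold change against the 4 normal genotypes was 0.24, with a 95% interval from -0.13 to 0.60 (limma adjusted p = 0.65). Among normal libraries Epas1 averaged 17.7 ± 2.92 in the low range of library numbers (SD, n = 5) and 13.0 ± 1.96 in the high range (SD, n = 7), and 12/- averaged 17.4 ± 1.25 (SD, n = 3). Range cannot be told apart from genotype in these means, as all +/12 libraries are low and all +/+ libraries high. In +/- the low library had 22.4 and the high ones 12.5 and 9.92. In +/vg the low library had 14.8 and the high ones 13.9 and 15.5. Against +/12, which also lies wholly in the low range, the log2 difference was 0.03 ± 0.21 (SE; limma adjusted p = 1.0).

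The share of Epas1 in the sum of Hif1a and Epas1 was 64.4 ± 2.94% in 12/- (SD, n = 3) and 57.0 ± 5.18% in the normal libraries (SD, n = 12). Its exact permutation p was 0.044, two-sided, and 0.044 after adjustment over the 2 shares tested, with 1 of 3 libraries of 12/- above all normal ones. Within the low range the difference did not pass, at 64.4% and 61.3 ± 3.96% (SD, n = 5, exact permutation p = 0.29). It did not pass either in 10 of the 15 tests that left out 1 library, with exact p up to 0.20 and differences from 5.70 to 8.42 percentage points. The libraries whose omission ended the call were +/+ replicates 2 and 3, +/- replicates 1 and 2, +/vg replicates 1 and 3, +/12 replicate 3 and each 12/- library. The largest p came without 12/- replicate 1.

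Hif3a (chr7:17616342-17647776 in mm9) encodes the third alpha subunit, of which some forms lack the activation domain and inhibit HIF. It had 5.87, 7.37 and 6.58 scaled FPKM in 12/-, inside the normal range of 4.07 to 8.38. The mean was highest in +/-, at 7.62 ± 1.13 (SD, n = 3), and 5.22 ± 1.18 in +/vg, 5.24 ± 1.25 in +/12 and 5.81 ± 1.56 in +/+ (SD, n = 3 each). The log2 difference of +/- from +/+ was 0.36 ± 0.20 and did not pass (SE, limma adjusted p = 0.70). Of its 2 annotated transcripts, the one of 6916 bases held most of the signal. The other, of 6947 bases, exceeded 1 scaled FPKM in 2 libraries, +/- replicate 3 at 2.81 and +/vg replicate 2 at 1.37.

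Arnt (chr3:95238312-95301161 in mm9), the beta subunit, had 6.97, 7.66 and 6.21 scaled FPKM in 12/- and 5.25 to 9.63 in the normal libraries. The log2 fold change was -0.06, with a 95% interval from -0.37 to 0.26 (limma adjusted p = 0.92). Its 2 annotated transcripts are 4369 and 4324 bases long, and the estimate moved between them among libraries of the same genotype. The shorter one had 0.03, 7.29 and 2.45 scaled FPKM in the +/+ libraries and 0.02, 2.62 and 4.84 in 12/-. The sum over both is used here, with a coefficient of variation of 18.3% over the normal libraries.

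Vhl and Hif1an were the lowest of the 9 genes in every genotype. Vhl (chr6:113574015-113581627 in mm9) had 3.76, 4.41 and 4.22 scaled FPKM in 12/- and 2.43 to 5.51 in the normal libraries, with a log2 fold change of 0.20 and a 95% interval from -0.15 to 0.54 (limma adjusted p = 0.68). Hif1an (chr19:44637344-44650764 in mm9) had 3.68, 3.20 and 2.85 in 12/- and 3.00 to 5.28 in the normal libraries. Its log2 fold change was -0.16, with a 95% interval from -0.44 to 0.11 (limma adjusted p = 0.67). In both genes the highest normal value came from +/+ replicate 2.

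Among the normal genotypes, none of the 9 genes was called for +/-, +/vg or +/12 against +/+, where 0% of all genes were called in each comparison. At an unadjusted p under 0.05, 0 of the 9 genes passed in each, and 792, 793 and 567 of all genes did in limma. For Egln3 the log2 differences from +/+ were -0.15, -0.05 and 0.30, with 95% intervals from -0.68 to 0.38, -0.58 to 0.48 and -0.23 to 0.82. For Egln1 they were 0.25, 0.07 and 0.21, with intervals from -0.12 to 0.62, -0.30 to 0.43 and -0.16 to 0.58.

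The genotypes +/+, +/-, +/12 and 12/- form a design of 4 cells, in which the interaction asks whether the deletion has another effect beside a 12 allele than beside a wild-type allele. For Egln3 the interaction was 1.85 ± 0.35 on the log2 scale (SE) and did not pass over all genes (limma adjusted p = 0.13). Without +/12 replicate 2 it was 2.20 (limma adjusted p = 0.0039), and this was the only 1 of 22 alternatives in which it passed. Over the 22 alternatives it ran from 1.64 to 2.20, with limma adjusted p up to 0.40. For Egln1 it was 0.44 ± 0.24 (SE, limma adjusted p = 0.81), and 0 of the 9 genes were called, with 0.0474% called among all genes. These were 5 genes, named here after their values were seen: Adm, Ero1l, Ndufa4l2, Plod2 and Tpi1. Adm, Ero1l, Ndufa4l2 and Tpi1 are on the list of HIF targets below, and Plod2, a collagen lysyl hydroxylase, is on that of oxygenases. Ndufa4l2 passed the filter on low values only through 12/-. All 5 calls were lost in 4 of the other settings and without each of 4 libraries, +/+ replicate 2, +/- replicate 2, +/12 replicate 3 and 12/- replicate 3, where 0 genes were called.

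Genes around the 9 were taken from lists. The VHL ubiquitin ligase list (Tceb1, Tceb2, Cul2, Rbx1, Rnf7, Nedd8 and Ube2m) had 0 of 7 tested genes called in 12/- against the 4 normal genotypes. Its median log2 fold change was -0.05. The smallest p-values were those of the scaffold Cul2 (-0.18, limma adjusted p = 0.66) and the elongin Tceb2 (-0.10, limma adjusted p = 0.84). Of the co-activators, chaperones and stability factors, 1 of 15 tested was called higher and 0 lower, with a median of -0.04. The called gene was Pkm2, a glycolytic enzyme also described as a HIF co-activator, at 544 ± 62.7 scaled FPKM in 12/- (SD, n = 3) and 231 to 357 in the normal libraries. On the log2 scale it rose by 0.90 ± 0.14 (SE; limma adjusted p = 0.0057). The acetyltransferases Ep300 and Crebbp had log2 fold changes of -0.04 and -0.16 (limma adjusted p = 0.93 and 0.59).

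Other bHLH-PAS proteins, the family of the HIF subunits, had 0 of 5 tested genes called and a median of -0.07. The aryl hydrocarbon receptor Ahr and the circadian factor Clock had the smallest p-values, at -0.43 and -0.31 (limma adjusted p = 0.22 and 0.24). In 12/- and the normal libraries, Ahr ran from 1.31 to 1.46 and from 1.72 to 3.32 scaled FPKM, and Clock from 1.80 to 2.13 and from 2.16 to 3.44. How many of all tested genes had ranges apart in this way was not counted, so the separation is not a result about these genes.

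Other enzymes that use oxygen and 2-oxoglutarate, as the Egln proteins do, had 4 of 25 tested genes called higher and 0 lower, with a median of 0.05. The 4 were hydroxylases of collagen: Plod2 rose by 1.21 ± 0.09 on the log2 scale, P4ha1 by 1.18 ± 0.15, P4ha2 by 1.52 ± 0.24 and Plod1 by 0.70 ± 0.12 (SE, limma adjusted p from 3.8e-05 to 0.017). Plod3, a further collagen lysyl hydroxylase of the list, was not called, at 0.38 ± 0.14 (SE; limma adjusted p = 0.32). It had 12.1 to 18.5 scaled FPKM in 12/- and 8.29 to 12.8 in the normal libraries, which overlapped. The collagen prolyl hydroxylase P4ha3 was below the filter on low values and was not tested. The histone demethylases Kdm5b and Kdm3a had log2 fold changes of 0.34 and 0.54 and were not called (limma adjusted p = 0.062 and 0.12). The other histone demethylases, the TET enzymes and the RNA demethylases Fto and Alkbh5 were not called.

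The list of HIF target genes, without the Egln genes, had 17 of 22 tested genes called higher and 0 lower, with a median log2 fold change of 1.15. The list was drawn up with earlier results of these libraries known and is not independent evidence. Ndufa4l2 and Vegfa passed the filter on low values only through 12/-, where they averaged 5.39 and 3.14 scaled FPKM. Their means in the normal genotypes were 0.08 to 0.54 and 0.70 to 0.85. Their calls therefore add no support, although both genes are in these counts and in the level by library below. The 6 smallest p-values belonged to the peptide hormone Adm (2.72 ± 0.19), the mitochondrial Ndufa4l2 (2.28 ± 0.20), the oxidase Ero1l (1.10 ± 0.09), the glycolytic enzyme Tpi1 (1.41 ± 0.13), the mitophagy receptor Bnip3 (2.68 ± 0.24) and the repressor Bhlhe40 (2.06 ± 0.19), each as log2 fold change with SE and with limma adjusted p of at most 8.3e-05. Egln3, at 1.97, thus stood above the median of the list and Egln1, at 0.77, below it.

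These targets were also summarised by library. The mean log2(scaled FPKM + 1) of the 22 targets was 4.93 to 5.14 in 12/- and 3.53 to 4.11 in the normal libraries. The highest normal value was that of +/12 replicate 2, which also had the highest Egln3 level of the normal libraries and the second highest of Egln1. In 10 of the 22 targets this library was the highest of the 12 normal ones, and in no other normal library was this so for more than 3. In how many of all tested genes it was the highest was not counted, so this is not a result about the targets. The unreplicated 12/vg library had a target level of 4.01, an Egln3 level of 7.68 and an Egln1 level of 16.7, each above 11 of the 12 normal libraries and below every 12/- library. It is shallow, with a mean read depth of 1.91 over Egln3 and 4.15 over Egln1. Its single targets went both ways. Bnip3l, at 13.6 scaled FPKM, lay below the normal lowest of 15.1. Ldha, at 1393, lay above the 12/- highest of 1090, as did the normal highest of 1214.

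In the same +/12 library the summed level of 6 epithelial and neural markers was 28.2 scaled FPKM, the highest of the normal libraries, which had a median of 7.12. The sum of 5 mesenchyme markers was 14.4, also the highest, with a median of 10.4. The part of such cells in the level of Egln3 was not tested.

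**Figure D4:**
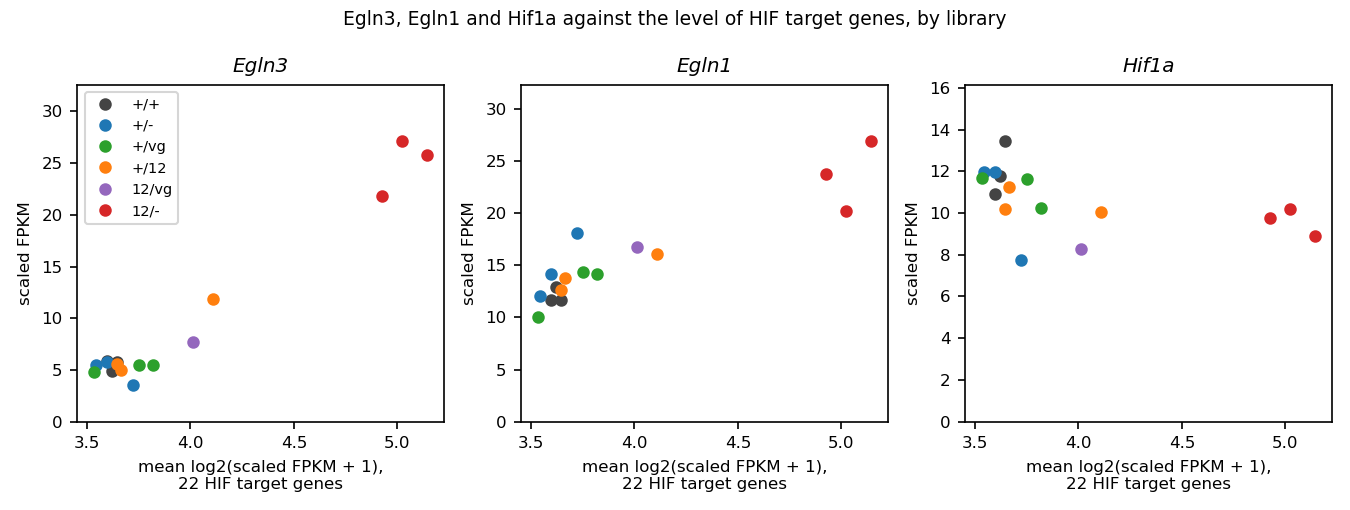
Scaled FPKM of Egln3, Egln1 and Hif1a (vertical axes) against the mean log2(scaled FPKM + 1) of 22 HIF target genes (horizontal axes), 1 point per library, coloured by Notch1 genotype. The 12/- libraries lie at 4.93 to 5.14 on the horizontal axis and the normal ones at 3.53 to 4.11, with +/12 replicate 2 at 4.11 and 12/vg at 4.01.

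Markers of other cell types were set beside the rise of Egln3 and Egln1. The summed level of 9 endothelial markers ran from 951 to 1122 scaled FPKM in 12/- and from 831 to 977 in the normal libraries, with 0 of 9 called and 6 of 9 with a higher mean in 12/-. Blood markers varied widely in both: 7 haematopoietic and megakaryocyte markers summed to 345 to 1447 in 12/- and 245 to 1865 in the normal libraries, and Ptprc, a defining marker of white cells, was at or below 0.052 everywhere. The erythroid sum was 82.9 to 337 in 12/- and 94.7 to 244 in the normal libraries, with 0 of 5 tested called. Cardiac muscle, in which Egln3 is known to be abundant, had a marker sum of 28.5 to 35.8 in 12/- and 14.8 to 60.1 in the normal libraries, over the 7 of 8 markers found. The defining markers Myh6 and Myh7 stayed at or below 1.37 and 1.33. The mesenchyme sum was 6.74 to 12.4 in 12/- and 6.00 to 14.4 in the normal libraries, and the epithelial and neural sum was 8.48 to 14.8 and 2.32 to 28.2.

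Genes whose profile over all 16 libraries was most like that of a member are given as a description, by Pearson's coefficient of log2(scaled FPKM + 1). The points share genotypes, so a coefficient mostly reflects the step to 12/- where there is one. The 3 genes most like Egln3 were Vegfa, which encodes an endothelial growth factor (0.96), Bnip3 (0.95) and the translation repressor Eif4ebp1 (0.95). For Egln1 they were the collagen prolyl hydroxylase P4ha1 (0.93), the glycolytic regulator Pfkfb3 (0.92) and the glycoprotein hormone Stc2 (0.92). For Epas1 they were Tor2a (0.85), the erythropoietin receptor Epor (0.83) and the Wnt receptor Fzd10 (0.83), and for Hif1a they were Tmx2 (0.93), the non-coding RNA Tug1 (0.92) and Ints6 (0.91). Over the 12 normal libraries alone the coefficients of the same genes were 0.66 to 0.70 for Egln3, 0.65 to 0.86 for Egln1, 0.80 to 0.82 for Epas1 and 0.88 to 0.93 for Hif1a. The genes had been picked on all 16 libraries, which include these 12. Egln3, Vegfa and Bnip3 each had their highest normal value in +/12 replicate 2 (11.9, 1.00 and 9.99 scaled FPKM). The coefficients of Egln3 may rest largely on that library and were not computed without it. Vegfa passed the filter on low values only through 12/-.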

How the data were processed

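RNA was measured in 16 libraries of sorted endothelial cells. Per the submitters' processing notes, the aligner was TopHat2 2.0.9 and the build mm9. The deposited tables have the layout of cufflinks, with an FPKM value and a coverage value (mean read depth over a transcript) for each of 28107 RefSeq transcripts, per the file headers. Strand, read length and the version of the counting tool were not given in the sources used here. Since values come from a model of overlapping transcripts, the split between transcripts of 1 gene is less certain than their sum, and whole reads could not be recovered, so no count test was used. Coverage divided by FPKM was constant within a library and gave the aligned gigabases. Gene starts were converted to count from 1.

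FPKM was summed by symbol (Python 3.11.15, pandas 2.3.3). A symbol was dropped if any library marked one of its transcripts with a status other than OK, which removed 211. No 2 libraries held identical values (0 pairs). The 10550 genes whose mean FPKM reached 1 were tested after division by median-ratio factors (0.850 to 1.13) over 8610 genes at 1 or more in every library. Limma 3.58.1 in R 4.3.3 (trend=TRUE, two-sided, pseudocount 1) was fitted to all 16 libraries in 6 groups. On simulated data from the 10550 genes for 12/- against the 4 normal genotypes it recovered 76 of 100 genes changed by 1 and 96 of 100 changed by 2 on the log2 scale, with 9 false calls. Against +/12 it recovered 63 of 100 and 91 of 100, with 4 false calls. The simulated noise was independent and normal, with 1 spread per gene for all libraries. Differences in depth and library number range were left out, so these counts do not give the power or false calls in the real data. Shares were compared with exact permutation tests.

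The members and lists were chosen with earlier results of these data known. Named genes are the 9 members, up to 6 called genes of each list by smallest p (otherwise the 2 with the smallest p), the 3 genes most like each of Egln3, Egln1, Epas1 and Hif1a without predicted genes, and others where stated in the text or given by their counts. Ep300, Crebbp, Plod3, P4ha3, Kdm5b and Kdm3a were added after their values were seen. Alternatives were no scaling, a pseudocount of 0.1, other filters, the groups compared alone, moderation without a trend, array weights, the library number range as covariate, leaving out shallow libraries or each replicate, and the most abundant transcript. Fitting the low range alone was added after seeing the data.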

Additional observations from a re-analysis of the deposited data

How the results depend on the processing

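Egln3 was called in 12/- against the 4 normal genotypes in 25 of 25 alternatives, at log2 fold changes from 1.91 to 2.14 (limma adjusted p up to 0.0034), and Egln1 in 23 of 25, at 0.68 to 1.02 (limma adjusted p from 0.0024 to 0.18). The share of Egln3 kept its call in all 18 alternatives, at 19.7 to 24.0 percentage points. These are not 18 separate checks. The most abundant transcript gave the main result again, because no Egln gene has a second annotated transcript. Leaving out the shallow +/- library and leaving out +/- replicate 2 were the same test. In every setting the exact p was the smallest possible, because the shares did not overlap. Depth limits the 2 shallow libraries most: in +/- replicate 2 the mean read depth was 0.649 over Egln3 and 0.610 over Hif1an. No paired analysis was possible because the labels give no replicate numbers that genotypes share: the numbers used here only name libraries, in order of accession within a genotype. The causes of the differences below were not tested.

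The number of the 9 genes called, against the 4 normal genotypes, was 1 to 2 when 1 library was left out. Against +/12 it was 0 with the groups alone or the low range alone, 2 with array weights and 0 to 1 without 1 library. Against +/- it was 2 with the range covariate. Against +/vg it was 2 without scaling, with array weights, with the range covariate and without the shallow libraries. Against +/+ it was 1 with the groups alone or the range covariate, and 1 in each fit without 1 library. For the interaction it was 0 to 1 without 1 library, the 1 being Egln3. Log2 fold changes of genes that were not called changed sign against the 4 normal genotypes: Arnt to 0.012 without scaling, 0.032 with the range covariate and -0.12 to 0.011 without 1 library (above 0 without 12/- replicate 3), Egln2 to -0.092 to 0.14 without 1 library (below 0 without 12/- replicate 1), and Epas1 and Hif3a to -0.045 and -0.031 with the range covariate. The Epas1 share differed by 3.09 percentage points in the low range alone and by 7.31 without the shallow +/- library, where neither passed, and by 5.70 to 8.42 without 1 library.

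Counts over all genes tested moved more. Against the 4 normal genotypes 83 were called, 249 with array weights, 47 with the range covariate, 140 without the shallow libraries and 27 to 141 without 1 library (27 without 12/- replicate 1, 39 without 12/- replicate 2, 141 without +/- replicate 2). Against +/12, 22 were called, 10 with the groups alone, 92 with array weights, 35 with the range covariate, 41 without the shallow libraries, 8 in the low range alone and 10 to 30 without 1 library. Against +/-, 60 were called, 12 with the groups alone, 35 with the range covariate, 36 with the most abundant transcript and 18 to 156 without 1 library. Against +/vg, 47 were called, 183 with array weights, 96 without the shallow libraries, 30 with the most abundant transcript and 26 to 30 without 1 library. Against +/+, 64 were called, 143 with array weights, 23 with the range covariate, 113 without the shallow libraries and 19 to 89 without 1 library. For +/- against +/+, 0 were called, 1 with either lower filter or the most abundant transcript, 4 with the groups alone and 0 to 4 without 1 library. For +/vg against +/+ it was 1 with no filter or the groups alone, 3 with array weights and 0 to 3 without 1 library, and for +/12 against +/+ it was 1 with the range covariate and 0 to 2 without 1 library. For the interaction 5 were called, 0 without scaling, with the range covariate, without the shallow libraries and with the most abundant transcript, 2 with a pseudocount of 0.1 or array weights, 1 with the groups alone and 0 to 9 without 1 library.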
